A study of Mus musculus with 39 samples.

Results

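Within PCA group 1/2, the 9 tumours with an intermediate level of Lyn were compared with the 13 tumours classed as Lyn-low, 22 of the 39 tumours in the series. The intermediate tumours, called Lyn-middle here, carry neither the Lyn-high nor the Lyn-low label: WT.01, WT.42, HET.27, HET.45, HET.48, HET.63, HOM.12, HOM.15 and HOM.72. The Lyn-low tumours are WT.02, WT.04, WT.40, WT.60, HET.29, HET.31, HOM.35, HOM.37, HOM.38, HOM.55, HOM.56, HOM.73 and HOM.74. The tumours were thus chosen by RNAseq values of these same libraries, the Lyn classes by the level of Lyn and the PCA groups by the study's principal components analysis. The comparison asks whether a step up in Lyn too small to earn the Lyn-high label goes with other differences in the tumour, once the large split between PCA groups is kept out.

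All tumours were mammary adenocarcinomas of no special type from adult female mice, and each gave a single RNAseq library from a piece of tumour. All mice carried BlgCre, floxed Brca1 (Brca1 fl/fl) and a germline heterozygous deletion of p53 (p53 +/-), in the Lyn-low as in the Lyn-middle group. BlgCre is driven by the β-lactoglobulin promoter, which is active in mammary epithelium, so that the floxed genes are targeted there and remain intact in leukocytes, vessels and stroma. The names begin with the Lyn genotype: WT is Lynwt/wt, HET is Lynfl/wt and HOM is Lynfl/fl, with exon 4 of Lyn floxed. The Lyn-middle tumours comprised 2 Lynwt/wt, 4 Lynfl/wt and 3 Lynfl/fl tumours from 9 animals, and the Lyn-low tumours 4 Lynwt/wt, 2 Lynfl/wt and 7 Lynfl/fl tumours from 10 animals, of which 3 gave 2 tumours each. No animal gave tumours to both groups. The autopsy numbers show 2 years, with 4 of 9 Lyn-middle and 4 of 13 Lyn-low tumours from the earlier year and the others from the later. The groups were unequal in the study's finer classes: 7 of 9 Lyn-middle tumours were in PCA group 2, and 9 of 13 Lyn-low tumours were in PCA group 1.

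LYN is a kinase of the SRC family that sits under the membrane of B cells, macrophages, neutrophils and other myeloid cells, and also of mammary luminal progenitor cells. In leukocytes it phosphorylates both activating receptors, which then recruit SYK, and inhibitory receptors, which recruit the phosphatases SHP-1 and SHIP-1, and T cells rely on LCK and FYN in its place. A bulk tumour library therefore reads Lyn from neoplastic and infiltrating cells together. For every gene given below, fewer cells of a type and less RNA per cell cannot be told apart.

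Lyn chose the groups, so its level is given as a description and was not tested. In the authors' normalised counts, which are counts divided by a size factor per tumour, Lyn ran from 659 over a median of 1594 to 2181 in Lyn-low tumours, and from 2349 over 2571 to 3165 in Lyn-middle tumours. On each side of the lower boundary lay the Lyn-low tumour WT.04 at 2181 and the Lyn-middle tumour HOM.72 at 2349, with the PCA group 3/4 tumour HOM.54 between them at 2292. On each side of the upper boundary lay HET.27 at 3165 and the Lyn-high tumour WT.39 at 3216. The groups are cut from a continuous range, and at both edges neighbouring tumours were closer to each other than to the middle of their own group. Lyn lies on chromosome 4 (GRCm38, 3678115 to 3813122).

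All other levels here are normalised counts scaled with TMM (trimmed mean of M-values) over the 29 tumours of PCA group 1/2. On that scale Lyn was 688 to 2263 in Lyn-low and 2462 to 3276 in Lyn-middle tumours, and the group difference was 0.81 on the log2 scale. Genotype ordered Lyn only in part. Among Lyn-low tumours, the 7 Lynfl/fl tumours spanned 688 to 1723, the 2 Lynfl/wt tumours 1696 to 2099 and the 4 Lynwt/wt tumours 1819 to 2263. Among Lyn-middle tumours, the 3 Lynfl/fl tumours spanned 2462 to 3093, overlapping the 2596 to 3276 of the 4 Lynfl/wt tumours, and the 2 Lynwt/wt tumours were at 2890 and 3046.

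The libraries were of like depth. Total counts were 54033138 to 83122719 in Lyn-middle and 52420848 to 80787223 in Lyn-low tumours, mitochondrial counts made up 0.991% to 2.31% and 0.697% to 1.81%, and the number of genes with at least 10 counts was 17091 to 18823 and 17138 to 18826. Single tumours stood apart in certain gene groups: HOM.12 in T-cell and cytotoxic genes, HET.63 in Trbc1 and Mmp13, WT.42 in milk and some myeloid genes, HET.45 in Cxcl2, Csn1s1 and Mmp12, HET.48 in Ccnb2 and the Lyn-low tumour WT.40 in skeletal muscle genes. Values without them are given beside the results that they moved most. Markers of luminal epithelium were present throughout, with a summed level of 1485 to 8400 CPM (counts per 1e6 counts of the library) in Lyn-middle and 2920 to 9826 CPM in Lyn-low tumours.

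No gene passed the test in edgeR. Of 18246 genes tested with the quasi-likelihood F test, 0 (0%) had both a 2-fold change and an adjusted p under 0.05, which is what a call needed, and 0 passed at the adjusted p alone, the lowest adjusted p being 0.132. At an unadjusted p under 0.05, 1064 genes (5.83%) were higher and 928 (5.09%) lower in Lyn-middle tumours, and the median log2 fold change over all genes was 0.01. DESeq2, the tool of the study, gave 60 genes higher and 24 lower at the same thresholds, and 176 at the adjusted p alone. DESeq2 replaces counts that it takes for outliers in groups of this size, and it gave no adjusted p for 1769 genes. Of the 10 named genes at the head of each direction, DESeq2 called 7 on the higher side (Pdcd1, Trbc1, Trbc2, Cd8a, Pcdhb12, Ltf and Tox, with DESeq2 adjusted p from 0.00162 to 0.0498) and 10 on the lower side (from 0.00162 to 0.0159). Without the Lyn-middle tumour HET.48, edgeR called 3 genes higher (Trbc1, Trbc2 and Pdcd1) and 7 lower (Ccnb2, Ttk, Kif15, Pclaf, Hells, Kif23 and Kif20a). In what follows, higher and lower refer to the unadjusted threshold, against which 5.83% and 5.09% of all genes are the background, and no difference is significant in edgeR unless said.

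Genes of T cells headed the higher side. Pdcd1 (chromosome 1, 94038305 to 94052553), the inhibitory receptor PD-1 of activated T cells, had 36.9, 150 and 757 normalised counts as lowest, median and highest in Lyn-middle tumours, against 6.69, 40.03 and 59.6 in Lyn-low tumours. The groups overlapped in 2 tumours only, since 7 of the 9 Lyn-middle tumours were above every Lyn-low tumour. The log2 fold change was 2.33 ± 0.45 (SE; edgeR adjusted p = 0.132), and 1.66 without HOM.12. Trbc2 (chromosome 6, 41546730 to 41548352), a constant segment of the T-cell receptor β chain, was at 38.8, 120 and 668 against 22.3, 47.1 and 94.9. For this gene 6 of 9 Lyn-middle tumours exceeded all Lyn-low tumours, with a log2 fold change of 2.21 ± 0.44 (edgeR adjusted p = 0.132) that stayed between 1.87 and 2.36 when any tumour was left out. Its neighbour Trbc1 had the largest log2 fold change of the genes named here, 5.60 ± 1.09 (edgeR adjusted p = 0.132), and a very different distribution. Its median was 44.9 in Lyn-middle and 15.1 in Lyn-low tumours, and the top value of 6234 came from HET.63, where Trbc2 was 103 and Cd8a 114. Without HET.63 its log2 fold change was 2.42.

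Cd8a, the co-receptor of cytotoxic T cells, was at 76.3, 114 and 1334.5 in Lyn-middle tumours against 24.3, 43.6 and 122 in Lyn-low tumours. All 9 Lyn-middle tumours were above the Lyn-low median and 4 were above every Lyn-low tumour, with a log2 fold change of 2.28 ± 0.49 (edgeR adjusted p = 0.142) that was 1.27 without HOM.12. Tox, a nuclear factor of T cells exposed to lasting antigen, was at 0, 92.2 and 356 against 2.35, 12.4 and 40.8. Its log2 fold change of 3.10 ± 0.70 (edgeR adjusted p = 0.164) remained at 2.79 or more in each fit that left out a tumour. Prf1, the pore-forming protein of cytotoxic granules, was at 3.43, 18.4 and 829.4 against 1.67, 9.62 and 17.4. Here 5 Lyn-middle tumours were above every Lyn-low tumour and 4 were below the Lyn-low median, and the log2 fold change was 3.54, and 1.07 without HOM.12. Nkg7, another granule protein, went from a median of 26.1 to 69.4, with a log2 fold change of 2.25 (1.30 without HOM.12).

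Pcdhb12, of the clustered β-protocadherins, was at 28.5, 53.1 and 849 normalised counts against 11.4, 28.3 and 82.0, above the Lyn-low median in all 9 tumours, and its log2 fold change was 2.48, and 1.73 without HET.48. Its neighbours in the cluster are close copies, so its count is uncertain.

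**Figure D1:**
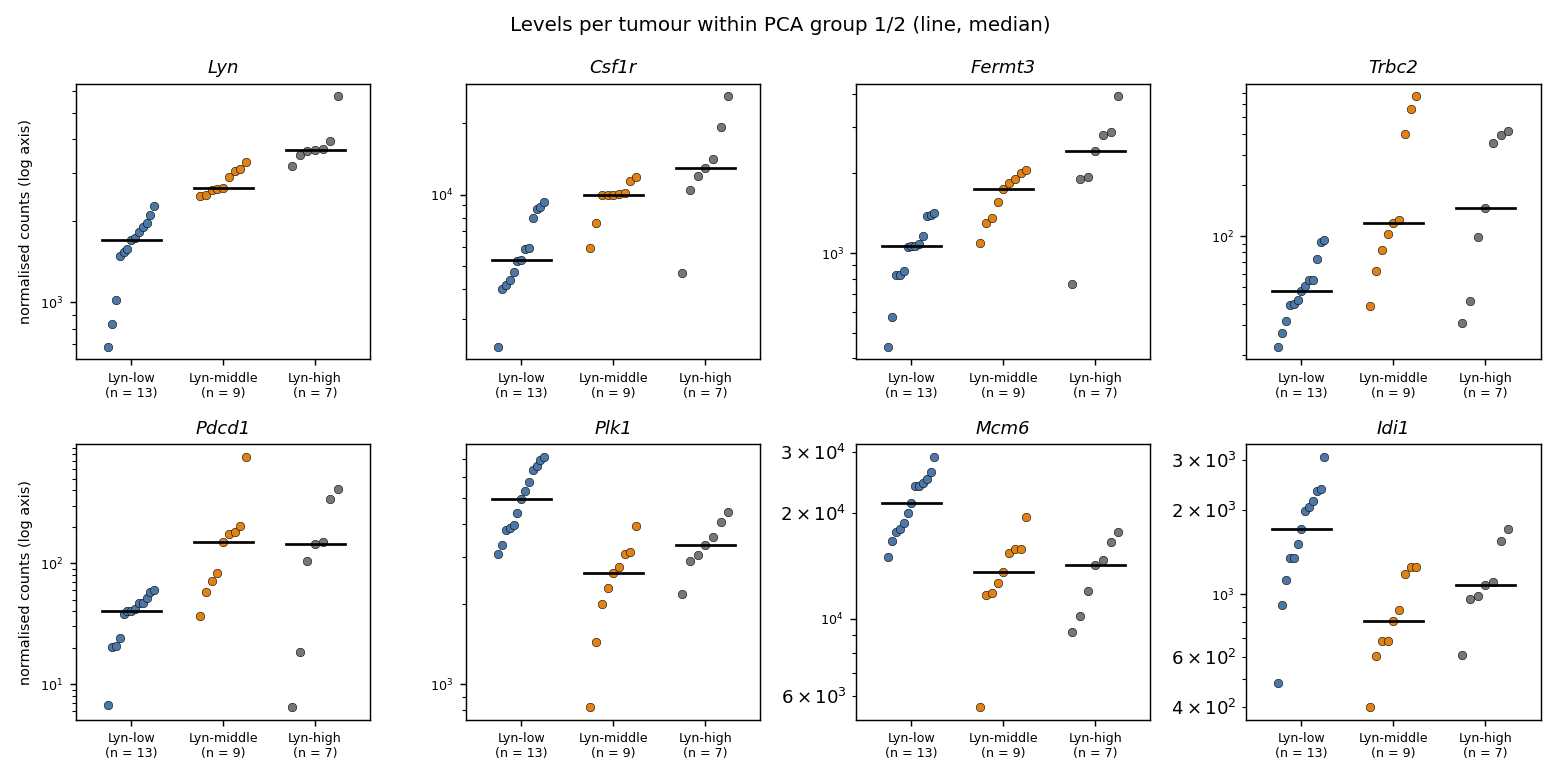
Normalised counts (TMM-scaled, log axis) of 8 genes in each tumour of PCA group 1/2, 1 point per tumour, with the group median as a line; Lyn chose the groups. Csf1r, Fermt3, Trbc2 and Pdcd1 sit higher in the 9 Lyn-middle than in the 13 Lyn-low tumours and Plk1, Mcm6 and Idi1 lower, with overlap between the groups in every gene but Lyn; the 7 Lyn-high tumours are shown beside them.

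Over the whole T-cell list, 14 of 18 members were higher and 0 lower, with a median log2 fold change of 1.39, against 5.83% higher and a median of 0.01 over all genes. Higher members included Cd3e (1.79), Cd3d (1.56), Cd4 (1.14) and Zap70 (1.22). The members that were not higher were Cd247 (0.45), Lck (-0.07), Skap1 (-0.58) and Cd5 (-0.80). The list had its summed level at 18.8, 31.0 and 122 CPM in Lyn-middle tumours and at 9.48, 16.2 and 41.3 CPM in Lyn-low tumours. All 9 Lyn-middle tumours were above the Lyn-low median, but only HOM.12 and HET.63 were above the highest Lyn-low tumour, HOM.74. Trbc1 made up most of the sum in HET.63, and without this gene the sum was 18.7 to 117 CPM in Lyn-middle tumours, with a median of 24.4 CPM. Without HOM.12, 8 of 18 members were higher with a median of 0.93, and without HOM.12 and HET.63 together, an alternative chosen after the data were seen, 7 were higher with a median of 0.87.

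Among genes of NK and cytotoxic cells, 4 of the 9 tested were higher (Prf1, Nkg7, Gzmk and Klrd1) and 0 lower, with a median of 1.27 that fell to 0.38 without HOM.12. Klrd1, the receptor chain CD94, had a log2 fold change of 1.27, which was 0.64 without HOM.12. Gzmk, a granzyme, was at 6.92, 31.3 and 165 normalised counts against 0, 7.45 and 32.3 (log2 fold change 2.46, and 1.93 without HOM.12), while Gzmb had a log2 fold change of -0.07. Ncr1, Gzma and Fasl did not pass the filter on low counts. Of 8 immune checkpoint genes tested, Pdcd1, Havcr2, Tigit and Icos were higher and 0 lower, with a median of 0.83. Without HOM.12, 2 of the 8 were higher with a median of 0.55, and Icos, a costimulatory receptor of T cells, went from a log2 fold change of 1.67 to 0.77. Havcr2, the receptor TIM-3 that macrophages also make, was at 402, 765 and 1206 against 172, 349 and 833, above the Lyn-low median in all 9 tumours. Tigit, also above the Lyn-low median in all 9, had a log2 fold change of 1.95, which was 0.54 without HOM.12. Foxp3, the factor of regulatory T cells, had a log2 fold change of 0.19.

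**Figure D2:**
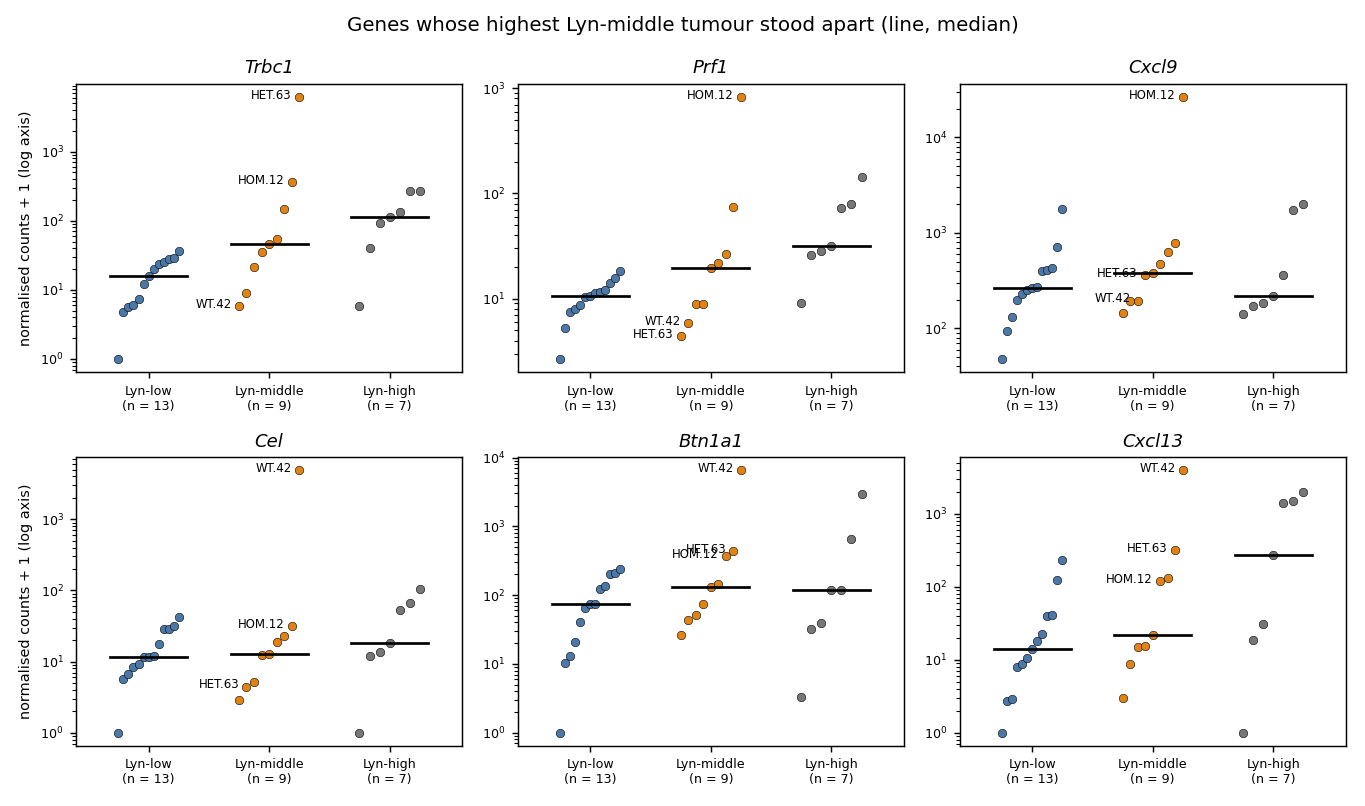
Normalised counts plus 1 (log axis) of 6 genes in which the highest Lyn-middle tumour stood apart, 1 point per tumour with group medians as lines and HOM.12, HET.63 and WT.42 named. Trbc1 is carried by HET.63 (6234), Prf1 (829.4) and Cxcl9 (26590) by HOM.12, and Cel (4854), Btn1a1 (6477) and Cxcl13 (3903) by WT.42.

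Macrophage genes had smaller fold changes than T-cell genes. Csf1r, the receptor for colony-stimulating factor 1 that macrophages need to survive, had 5960, 9948 and 11790 normalised counts in Lyn-middle tumours against 2307, 5313 and 9312 in Lyn-low tumours. All 9 Lyn-middle tumours were above the Lyn-low median and 7 above every Lyn-low tumour, with a log2 fold change of 0.70 ± 0.20 (edgeR adjusted p = 0.178; 0.62 to 0.77 with any tumour left out). C1qc, a chain of complement C1q made by tissue macrophages, was at 7889, 13099 and 16263 against 3622, 6705 and 11748, with a log2 fold change of 0.68 ± 0.20 (edgeR adjusted p = 0.183). Cd68, a lysosomal protein of macrophages, was above the Lyn-low median in all 9 tumours at a log2 fold change of 0.74. Lyz2, the lysozyme of myeloid cells, went from a median of 17484 to 31391, and its log2 fold change of 1.13 was 0.81 without WT.42. Of the 16 macrophage and monocyte genes, 12 were higher and 0 lower, with a median of 0.71. With each tumour left out in turn, 11 to 13 were higher. Mrc1 (0.40), Ccr2 (0.25), Cd163 (0.18) and Cd14 (0.84) were not among the 12. The summed level was 1149, 2131 and 3474 CPM against 736, 1317 and 2051 CPM, with 8 of 9 Lyn-middle tumours above the Lyn-low median and HET.48 below it.

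Genes of leukocyte signalling and cytoskeleton, which most white cells share, formed the only list of the 46 with every tested member higher in edgeR: 16 of 16 were higher, with a median of 0.71, and 16 were higher in each of the 22 fits that left out a tumour. Lyn chose the groups and the lists were chosen with earlier results of these data known, so this count is a description only. Arhgap45, a GTPase-activating protein of blood cells, was at 903, 1703 and 2927 normalised counts against 457, 970 and 1489, with 7 of 9 Lyn-middle tumours above all Lyn-low tumours and a log2 fold change of 0.84 ± 0.21 (edgeR adjusted p = 0.174). Fermt3, which activates integrins in blood cells, was at 1090, 1754 and 2066 against 444, 1067 and 1417, above the Lyn-low median in all 9 (log2 fold change 0.70). Coro1a, an actin-binding coronin, and Arl11, a small GTPase, had log2 fold changes of 0.67 and 0.83. Ptprc, the common leukocyte antigen CD45, had a log2 fold change of 0.64.

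**Figure D3:**
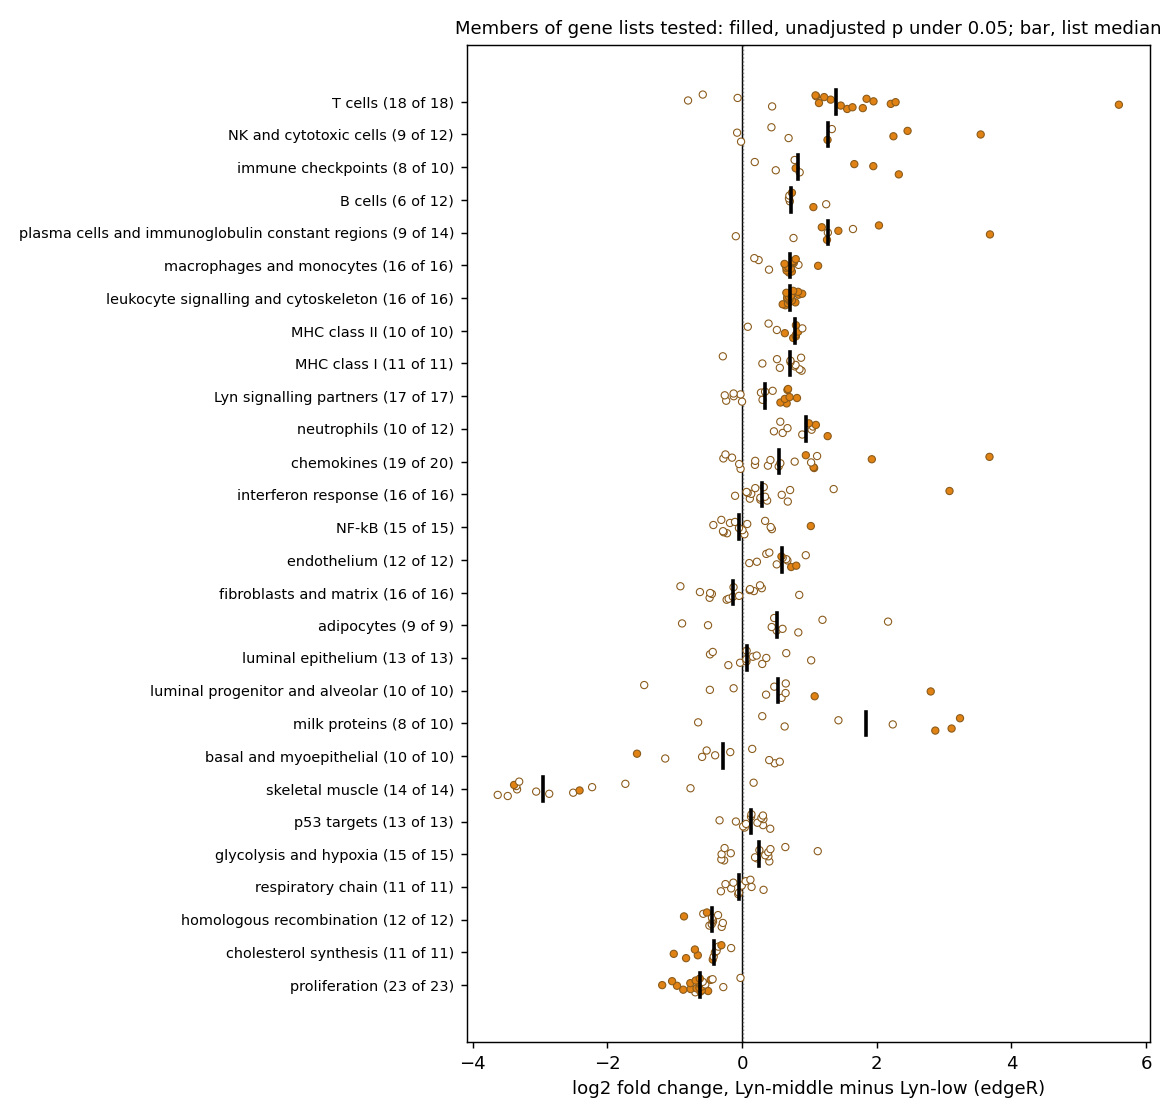
Log2 fold change (edgeR, Lyn-middle minus Lyn-low) of each tested member of 28 gene lists, 1 point per gene, filled where the unadjusted p was under 0.05, with the list's median as a bar and, in brackets, members tested of members listed. T-cell genes centre on 1.39 and macrophage and leukocyte signalling genes on 0.71, while all 23 proliferation genes and all 11 cholesterol synthesis genes lie below 0.

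Of the 17 genes listed as signalling partners of Lyn, 7 were higher and 0 lower, with a median of 0.34. Inpp5d, the phosphatase SHIP-1, was at 1388, 2190 and 2901 normalised counts against 659, 1237 and 2044, above the Lyn-low median in all 9 tumours, with a log2 fold change of 0.63 ± 0.18 (edgeR adjusted p = 0.180). Syk, the kinase recruited downstream of LYN, was at 1150, 1578 and 2298 against 484, 1143 and 1659, also above the Lyn-low median in all 9, with a log2 fold change of 0.66. Fcgr2b, the inhibitory Fc receptor that LYN phosphorylates, had a log2 fold change of 0.82, Hcls1, a cortactin-like substrate of leukocytes, 0.67, and Btk, the kinase of B cells and myeloid cells, 0.57. Partners made by many cell types had smaller values: Csk, which switches SRC kinases off, was at -0.26, Cbl, a ubiquitin ligase, at -0.02 and Pag1, the membrane anchor of CSK, at -0.13. Ptpn6, the phosphatase SHP-1 of blood cells, was at 0.30 on the log2 scale and was not among the higher partners. Of the other SRC family kinases, Src had a log2 fold change of -0.21, Yes1 0.30 and Lck -0.07, and these 3 were not among the higher genes.

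Of 10 MHC class II genes, which present antigen to CD4+ T cells, 6 were higher and 0 lower, with a median of 0.78. Cd74, the invariant chain, was at 26022, 52994 and 126910 normalised counts against 16836, 37977 and 70840 (log2 fold change 0.80), with 7 of 9 above the Lyn-low median. H2-DMb1, which helps to load peptide, was above the Lyn-low median in all 9 tumours (0.83). Without HOM.72 only 2 of the 10 were higher, and with PCA group 1 or 2 as a term in the model 1 was. The 11 MHC class I genes had a median of 0.72, with 0 higher in edgeR and 1 in DESeq2. With a tumour left out 0 to 6 of them were higher, 6 without the Lyn-low tumour HOM.74, and the median was 0.43 to 0.96. H2-D1, a class I heavy chain, ranged from 30627 to 246210 in Lyn-middle and from 9816 to 253790 in Lyn-low tumours. With the PCA group as a term the class I median was 0.15. The part of the PCA group in the class I difference was not tested.

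B-cell RNA was scarce in both groups. Of 12 B-cell genes 6 did not pass the filter on low counts, among them Ms4a1, Pax5, Cr2, Fcer2a and Fcrla, and Ms4a1, the B-cell antigen CD20, had at most 45.2 normalised counts in Lyn-middle and 25.1 in Lyn-low tumours. Of the 6 tested, Cd22 (1.06), an inhibitory receptor phosphorylated by LYN, and Cd72 (0.74) were higher. Cd22 was at 135, 273 and 585 against 47.7, 119 and 248, above the Lyn-low median in all 9 tumours. Cd79a (1.25) and Cd79b (0.71), the signalling chains of the B-cell receptor, were tested and were not higher. Their medians were 15.8 against 6.31 and 29.9 against 21.8 normalised counts, and Cd79b reached 151 in WT.01. Counts of Ms4a1 and median counts of Cd79a and Cd79b were thus low, while those of Cd22 and Cd72 were not. Of 9 plasma-cell and immunoglobulin genes tested 5 were higher and 0 lower, with a median of 1.27, and without HOM.12 2 were higher with a median of 0.75. Ighm, the constant region of IgM, went from a median of 246 to 752, with a log2 fold change of 1.43 (0.91 without HOM.12). Igkc, the κ light-chain constant region, was at 25.4, 110 and 1723 against 0.954, 51.7 and 368, with a log2 fold change of 2.03 (1.16 without HOM.12). Pou2af1, a transcriptional co-activator of B cells, had a log2 fold change of 3.68 ± 1.05 (edgeR adjusted p = 0.178), although 4 of 9 Lyn-middle tumours were below the Lyn-low median.

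Of 19 chemokine genes tested 5 were higher and 0 lower, with a median of 0.54. Cxcl16, a membrane-bound chemokine for CXCR6 on T cells, was at 3232, 9724 and 16967 normalised counts against 2218, 4887 and 11016 (log2 fold change 0.95; 0.83 to 1.08 with any tumour left out). Ccl4, which attracts monocytes and T cells, and its relative Ccl3 had log2 fold changes of 1.06 and 1.07. Cxcl13 and Cxcl2 rested largely on a single tumour. Cxcl13, the B-cell attractant, went from 3.67 to 0.97 without WT.42. Cxcl2, a neutrophil attractant, went from 1.93 to 0.66 without HET.45, and without that tumour 3 of the 19 chemokine genes were higher with a median of 0.27. Of 16 genes in the interferon response list only Cxcl9, a chemokine induced by interferon-γ, was higher, and that list had a median of 0.30. Cxcl9 went from 3.08 to -0.03 without HOM.12, in which it reached 26590 against at most 785 in the other 8 Lyn-middle tumours. Of 10 neutrophil genes tested Trem1 (1.10), S100a8 (1.27) and Il1b (0.99) were higher, and 0 were higher without HET.45. S100a8, a calcium-binding protein of neutrophils, was at 0.45 on the log2 scale without WT.42.

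The NF-kB list showed no shift. Of 15 genes only Bcl2a1a was higher and 0 were lower, and the median was -0.05. Bcl2a1a, an anti-apoptotic BCL2 relative that leukocytes make, was at 79.6, 244 and 471 normalised counts against 41.8, 110 and 258 (log2 fold change 1.02 ± 0.38, edgeR adjusted p = 0.297). Of the genes that the study chose for qRT-PCR, Il4i1, an amino acid oxidase of myeloid cells, was higher (log2 fold change 0.83, edgeR adjusted p = 0.311), with 7 of 9 Lyn-middle tumours above the Lyn-low median. The other 6 had log2 fold changes between -0.49 and 0.54 and edgeR adjusted p values of 0.660 or above: Ccl5 (0.54), Tnfaip3 (0.42), Cd40 (0.08), Relb (0.01), Nfkb2 (-0.22) and Shisa8 (-0.49). Ccl5 was at 0.11 without HOM.12. For Nfkb2, the precursor of the p52 subunit, the medians were 10662 and 10332, and the Lyn-middle tumours lay inside the Lyn-low range of 3581 to 28085. With PCA group 1 or 2 as a term, 4 of the 15 NF-kB genes were lower, 0 were higher and the median was -0.49.

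**Figure D4:**
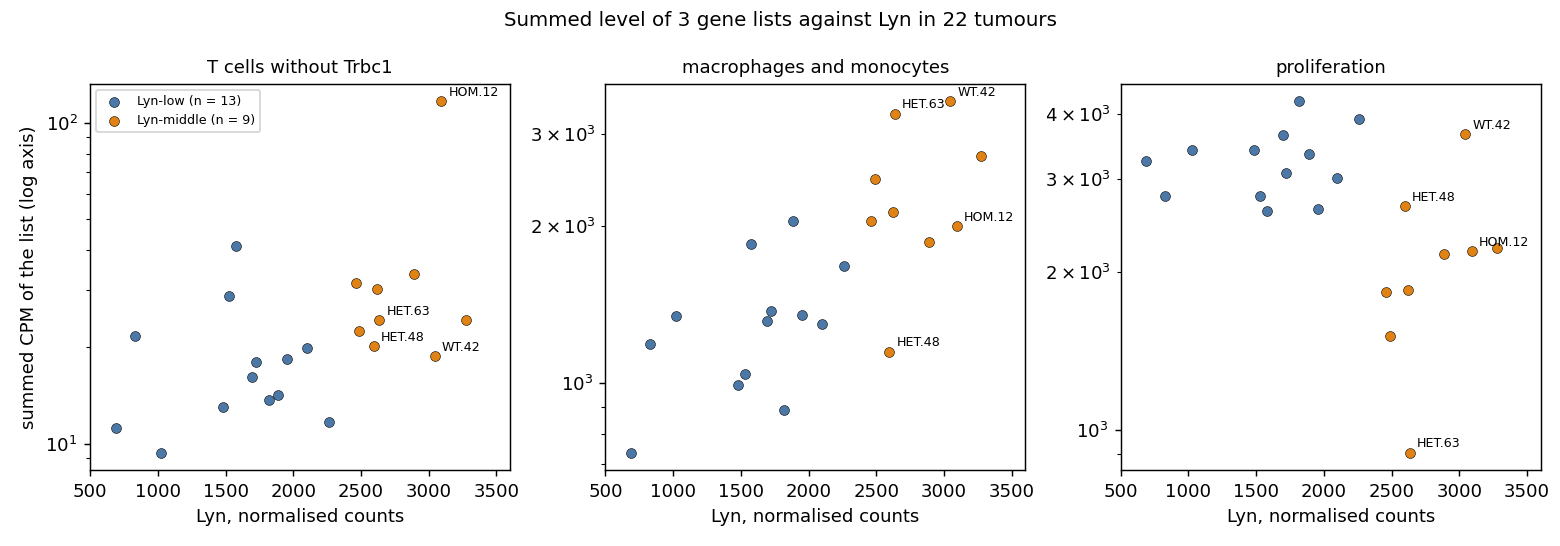
Summed level of T-cell genes without Trbc1, of macrophage and monocyte genes and of proliferation genes (CPM, log axis) against the normalised count of Lyn in the 22 tumours, 1 point per tumour. Macrophage sums include Lyz2 and reach 3474 CPM in Lyn-middle and 2051 CPM in Lyn-low tumours. Proliferation sums lie below the Lyn-low median of 3245 CPM in 8 of 9 Lyn-middle tumours, with HET.63 lowest at 906 CPM.

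The lower side was led by genes of cell division. Pclaf (chromosome 9, 65890237 to 65903266), a partner of the replication clamp PCNA, had 1205, 3357 and 5024 normalised counts in Lyn-middle tumours against 4466, 7416 and 14045 in Lyn-low tumours. All 9 Lyn-middle tumours were below the Lyn-low median, and the log2 fold change was -1.24 ± 0.24 (edgeR adjusted p = 0.132). Kif15 (chromosome 9, 122951046 to 123018733), a mitotic kinesin, was at 275, 642 and 1531 against 1100, 1960 and 2687, again below the median in all 9, with a log2 fold change of -1.36 ± 0.27 (edgeR adjusted p = 0.132). Plk1, a kinase that drives mitosis, was at 821, 2614 and 3915 against 3072, 4926 and 7109, below the median in all 9 (-1.04 ± 0.22, edgeR adjusted p = 0.142). Ttk, the spindle checkpoint kinase MPS1 (-1.10), Kif23, a kinesin of cytokinesis (-1.05), Hells, a chromatin remodeller of S phase (-1.13), and E2f7, a repressor of the E2F family (-1.06), were each below the Lyn-low median in all 9. Kif11, the spindle kinesin Eg5, was below it in 8 (-1.07). The other named genes with the smallest p were Tmem132a (-1.06), a membrane protein, and Hmcn2 (-1.77), an extracellular matrix protein. Within PCA group 2 Tmem132a was at -0.42 and Hmcn2 at -0.53. Hmcn2 was at -0.014 within the earlier autopsy year and -2.27 within the later.

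Of the 23 proliferation genes 17 were lower and 0 higher, against 5.09% lower over all genes, and all 23 had a negative log2 fold change, with a median of -0.63. With any tumour left out, 15 to 20 were lower. Mcm4, of the replicative helicase, was at 2280, 3195 and 4778 against 3674, 5892 and 13121 (-0.87 ± 0.21, edgeR adjusted p = 0.169). Mcm6, of the same helicase, was at 5586, 13575 and 19462 against 15014, 21416 and 28974 (-0.68). Ccnb2, a mitotic cyclin, was below the Lyn-low median in 8 of 9, HET.48 being the exception at 6405. The log2 fold change of Ccnb2 was -1.19, and -1.56 without HET.48. The members that were not lower were Bub1 (-0.58), Mki67 (-0.69), Birc5 (-0.44), Ccne1 (-0.55), Pcna (-0.28) and E2f1 (-0.02). The summed level was 906, 2165 and 3657 CPM in Lyn-middle and 2616, 3245 and 4222 CPM in Lyn-low tumours. WT.42 alone was above the Lyn-low median, and 7 of the 9 Lyn-middle sums were below every Lyn-low tumour.

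The lower proliferation genes and the higher leukocyte genes were measured in the same bulk libraries. HET.48 had the lowest macrophage sum of the Lyn-middle tumours, 1149 CPM, with a proliferation sum of 2666 CPM. HET.63 had a macrophage sum of 3286 CPM and the lowest proliferation sum, 906 CPM. WT.42 had the highest sums of the Lyn-middle tumours in both lists, 3474 and 3657 CPM. Its macrophage sum includes Lyz2, in which it stood apart at 115990 normalised counts (next 62639). The part of leukocyte content in the proliferation difference was not tested.

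Brca1 and Trp53, the genes altered in every tumour, did not pass the test. Brca1 was at 431, 1224 and 2950 against 701, 1540 and 3317 normalised counts (log2 fold change -0.30, edgeR adjusted p = 0.763), and Trp53 had medians of 1246 and 1245 (0.14, edgeR adjusted p = 0.838). Only part of Brca1 is floxed and stroma is unrecombined, so these counts do not measure its loss. Of 12 homologous recombination genes Brip1 (-0.86), a helicase that binds BRCA1, and Fanci (-0.52), of the Fanconi anaemia pathway, were lower and 0 higher. All 12 were negative, with a median of -0.44. With a tumour left out 2 to 7 of the 12 were lower, 7 without WT.42 and 6 without HET.48. None of the 13 p53 target genes passed the unadjusted threshold in either direction in edgeR, and 1 was higher with DESeq2 and 2 in edgeR without HOM.12.

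Genes of cholesterol synthesis were also lower. Idi1, an isomerase of the pathway, had 398, 807 and 1256 normalised counts in Lyn-middle tumours against 484, 1711 and 3074 in Lyn-low tumours, below the Lyn-low median in all 9, with a log2 fold change of -1.01 ± 0.27 (edgeR adjusted p = 0.176). Hmgcs1, a synthase early in the pathway, was at 2279, 4645 and 6316 against 2939, 6866 and 15831, also below the median in all 9 (-0.83). Cyp51, a demethylase of lanosterol, was below the median in all 9 as well (-0.70). Of the 11 genes 6 were lower and 0 higher, all 11 were negative, and the median was -0.42. Srebf2, the transcription factor of the pathway, was at -0.31 on the log2 scale. The summed level was 651, 844 and 1108 CPM against 665, 1235 and 1456 CPM, and 0 of 9 Lyn-middle tumours were above the Lyn-low median. With any tumour left out 3 to 8 genes were lower, the 3 without HOM.15.

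Epithelial identity genes did not move together. None of 13 luminal epithelium genes was higher or lower in edgeR or DESeq2, and their median was 0.07. Of 10 luminal progenitor and alveolar genes, Ltf and Kit were higher. Ltf, the milk and neutrophil protein lactoferrin, was at 759, 5652 and 40165 normalised counts against 210, 1075 and 7077, with 8 of 9 above the Lyn-low median and a log2 fold change of 2.80 ± 0.63 (edgeR adjusted p = 0.164). Kit, the receptor tyrosine kinase of luminal progenitors, was at 8205, 53120 and 110760 against 1180, 20594 and 48426, with 5 of 9 Lyn-middle tumours above every Lyn-low tumour and 3 below the median (1.08 ± 0.48, edgeR adjusted p = 0.401). Elf5 (0.59), Sox9 (0.48) and Aldh1a3 (0.36) were not higher.

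Of 8 milk genes tested Btn1a1 (3.24), Csn1s2a (3.11) and Csn1s1 (2.87) were higher. Csn1s1 reached 110020 normalised counts in HET.45, and its log2 fold change without that tumour was 1.74. Within the earlier autopsy year Csn1s1 was at -2.20 and within the later at 5.275. Btn1a1, butyrophilin of the milk fat globule, had a median of 131 against 74.2 and reached 6477 in WT.42, and its log2 fold change without WT.42 was 0.78. The milk list had a median of 1.83, and 0.80 without WT.42. Cel, the bile salt-stimulated lipase of milk and pancreas, was the most extreme case. It had a log2 fold change of 5.17 with medians of 11.8 and 10.52, and without WT.42, at 4854, its log2 fold change was -0.26. The summed level of the milk list was below the Lyn-low median in 6 of 9 Lyn-middle tumours, so the list's median fold change and its summed level pointed different ways.

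Of 10 hormone-sensing luminal genes Wnt4 (1.37), a ligand downstream of progesterone, was higher, and Prom1 (-2.06), a stem-cell surface marker, and Foxa1 (-2.04), the pioneer factor of the oestrogen receptor, were lower. Esr1, the oestrogen receptor itself, was at 0.07. Within PCA group 2 Prom1 was at -0.20 and Foxa1 at -0.40, while Wnt4 was at 1.52. Prom1 was at -0.08 within the earlier autopsy year and -3.29 within the later. In the Wnt pathway list of 13 tested genes Wnt4 was higher and Wnt5a (-2.09), Wnt6 (-2.26) and Wnt10b (-2.43) were lower. Wnt5a had a higher median in Lyn-middle (368) than in Lyn-low tumours (284), while the highest Lyn-low tumour reached 7156. Of 10 basal and myoepithelial genes Cnn1, a calponin of smooth muscle and myoepithelium, was lower (-1.56, and -0.37 within PCA group 2).

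Stromal lists did not move together. None of 16 fibroblast and matrix genes was higher or lower in edgeR, and 1 was lower in DESeq2, with a median of -0.13. Of 12 endothelial genes Cdh5 (0.80), Pecam1 (0.73) and Vwf (0.58) were higher, all 12 were positive and the median was 0.59. With a tumour left out 0 to 8 of them were higher, 0 without WT.01, HET.29, HOM.35 or HET.45 and 8 without HET.48 or WT.42. Of 11 matrix proteases and inhibitors Mmp13 (1.57), Mmp12 (0.93) and Timp2 (1.05) were higher, and Mmp13 was at 0.51 without HET.63 and Mmp12 at 0.51 without HET.45. Skeletal muscle genes had a median of -2.96 with only Mylpf and Actn3 lower of 14. The Lyn-low tumour WT.40 had a summed level of 4216 CPM against medians of 29.8 CPM in Lyn-low and 34.0 CPM in Lyn-middle tumours. Without WT.40 the muscle median was -0.95 and 0 of 14 genes were lower, while without HET.27 the median was -3.69 and 10 were lower. None of 15 glycolysis and hypoxia genes and none of 11 respiratory chain genes passed the unadjusted threshold in edgeR. Dendritic cell genes had 1 of 11 higher, mast cell genes 1 of 6, complement genes 2 of 11 and adipocyte genes 0 of 9, with 0 lower in each.

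Of 10 neighbours of Lyn on chromosome 4 tested 1 was higher, Plag1, a zinc finger factor (chromosome 4, 3900996 to 3938423), with a log2 fold change of 2.13 ± 0.72 (edgeR adjusted p = 0.250). Plag1 was at 25.5, 180 and 478 normalised counts against 0, 28.4 and 154, with 5 of 9 Lyn-middle tumours above all Lyn-low tumours. Nearer and further genes were at smaller values, such as Chchd7 at 0.56, Tgs1 at 0.24 and Rps20 at 0.20 on the log2 scale. With a tumour left out 1 to 4 of the 10 were higher, 4 without HOM.74. The list's median was 0.22, against 0.81 for Lyn itself.

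**Figure D5:**
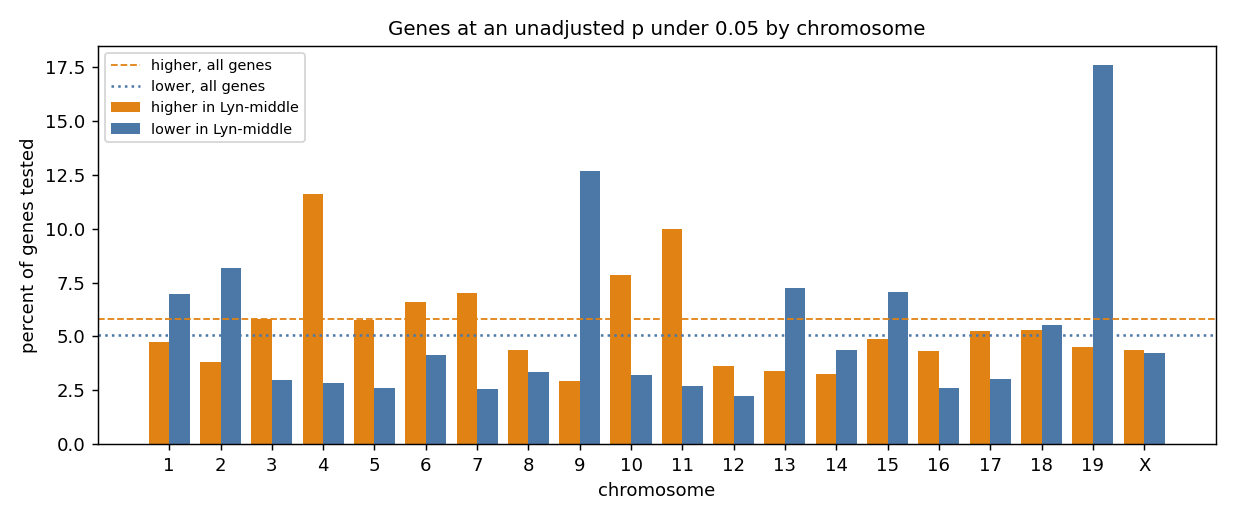
Percent of the genes tested on each chromosome that were higher (orange) or lower (blue) in Lyn-middle tumours at an unadjusted p under 0.05, with the percent over all genes as lines (5.83% higher, 5.09% lower). Lower genes reach 17.6% on chromosome 19 and 12.7% on chromosome 9, and higher genes 11.6% on chromosome 4 and 10% on chromosome 11.

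The genes past the unadjusted threshold were unevenly placed in the genome. On chromosome 19, 102 of 578 genes (17.6%) were lower, and on chromosome 9, 130 of 1024 (12.7%). On chromosome 4, 126 of 1089 genes (11.6%) were higher, and on chromosome 11, 148 of 1473 (10%). The shifts behind these counts were small, with median log2 fold changes of -0.21 and -0.18 on chromosomes 19 and 9 and of 0.13 and 0.12 on chromosomes 4 and 11. The groups overlapped when each tumour's median over a chromosome was taken, with 8 of 9 Lyn-middle tumours below the Lyn-low median on chromosome 19 and 7 of 9 on chromosome 9. Genes on a chromosome are not independent, and no test was made of this pattern. Of the 10 named genes on the lower side, 4 lie on chromosome 9 (Pclaf, Kif15, Ttk and Kif23) and 3 on chromosome 19 (Hells, Tmem132a and Kif11). Of the 23 proliferation genes only Ccnb2 lies on either chromosome, and of the other 22, 16 were lower with a median of -0.63.

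Year, genotype and PCA group were examined in turn because they were unequal between the groups. No gene passed the test of whether the difference between the groups itself differed between the years: 0 of 18246 passed this interaction in edgeR, with 417 higher and 599 lower at an unadjusted p under 0.05 and a lowest adjusted p of 0.781, and no other tool was run on it. Within the earlier year, with 4 tumours a group, 12 of 18 T-cell, 10 of 16 macrophage and 10 of 16 leukocyte signalling genes were higher and 9 of 23 proliferation genes lower. Within the later year the counts were 4, 7 and 8 higher and 7 lower. The T-cell median was 2.34 in the earlier year, where HOM.12 falls, and 0.74 in the later. In the later year, edgeR called 1 gene, Cyp26a1, an enzyme that degrades retinoic acid, as higher (adjusted p = 0.0143).

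Within the 10 Lynfl/fl tumours, 3 Lyn-middle and 7 Lyn-low, 14 T-cell, 10 macrophage and 16 leukocyte signalling genes were higher and 13 proliferation genes lower. Within PCA group 2, 7 Lyn-middle and 4 Lyn-low tumours, 5 T-cell, 7 macrophage and 11 leukocyte signalling genes were higher, and 11 proliferation and 6 cholesterol synthesis genes were lower. With PCA group 1 or 2 as a term over all 22 tumours, the counts were 10, 8, 12, 16 and 8 in that order. In each of these subsets and in the fit with the term, the medians of the T-cell, macrophage and leukocyte signalling lists were above 0 and those of the proliferation and cholesterol synthesis lists below 0. The genes behind these counts can differ from one subset to the next.

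The next step up in Lyn was set beside this comparison. The 7 Lyn-high tumours of PCA group 1/2 were compared with the same 9 Lyn-middle tumours, so both comparisons share the Lyn-middle tumours, and WT.42 and the Lyn-high tumour WT.59 came from the same animal. Of 18234 genes tested 0 (0%) were called in edgeR, with 668 (3.66%) higher and 421 (2.31%) lower at an unadjusted p under 0.05 and a lowest adjusted p of 0.801. DESeq2 called 37 higher and 12 lower. The filter on low counts let in more B-cell and immunoglobulin genes here than in the lower step, through the Lyn-high tumours, so the counts that follow are over the genes tested in both steps. B-cell genes stood at 4 of 6 higher with a median of 2.09, beside 2 of 6 and 0.73 in the lower step. Plasma-cell and immunoglobulin genes stood at 7 of 9 higher with a median of 3.06, beside 5 of 9 and 1.27. Igkc, for example, had a log2 fold change of 3.73 between Lyn-high and Lyn-middle tumours and 2.03 between Lyn-middle and Lyn-low tumours (1.16 without HOM.12). In Lyn-high tumours Igkc was at 25498 normalised counts in HOM.70 and 5918 in HET.07, but at 110 in HOM.13. Cd79a was at 609, 1145 and 851 in HET.06, HET.07 and HOM.70, while the Lyn-high median was 86.6. The B-cell sum of Lyn-high tumours ran from 21.3 to 179.5 CPM with a median of 88.9 CPM. Its lowest value, in WT.41, was below every Lyn-middle tumour. The whole plasma-cell list summed to 1431 CPM in the Lyn-high tumour HOM.70 and to 390 CPM in HET.07. The Lyn-high median was 66.6 CPM, and the Lyn-middle tumours ran from 5.10 to 114 CPM. Genes of other cell types also differed in the upper step. Of 12 skeletal muscle genes 10 were higher and 1 lower, with a median of 3.93. Of adipocyte genes 6 of 9 were higher (median 2.96), and of mast cell genes 4 of 6 (median 2.65). Muscle sums were 3176 CPM in WT.39, 2246 CPM in HET.07 and 408 CPM in HOM.70, with a Lyn-high median of 64.1 CPM. The adipocyte sum was 1842 CPM in HET.07, with a Lyn-high median of 125 CPM. Glycolysis and hypoxia genes stood at 7 of 15 lower with a median of -0.90. The part of muscle, fat and mast cells in the upper step was not tested.

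T-cell genes stood at 0 of 18 higher with a median of 0.65 in the upper step, beside 14 of 18 and 1.39 in the lower. Proliferation genes stood at 1 of 23 higher and 0 lower with a median of 0.18, beside 17 lower and -0.63. Macrophage genes stood at 2 of 16 higher (0.38), beside 12 (0.71), and leukocyte signalling genes at 12 of 16 (0.65), beside 16 (0.71). The difference between the steps was not tested, and the upper step rests on fewer tumours. The summed T-cell level of the Lyn-high tumours ran from 9.23 to 103 CPM with a median of 55.4 CPM, which took in every Lyn-middle tumour but HOM.12 and HET.63. Their summed proliferation level ran from 1932 to 2762 CPM with a median of 2159 CPM, close to the Lyn-middle median of 2165 CPM.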

How the data were processed

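Libraries were poly(A)-selected, directional and read in pairs. The authors used fastp for trimming, STAR 2.5.1b for alignment (GRCm38) and featureCounts 1.5.1 for counting over Gencode vM17. The deposited raw counts of 53715 genes were the input here. Most low counts were even (73.9% to 86.8% of counts from 1 to 10 per tumour), as if both mates of a pair were counted. The authors' normalised score columns hold counts divided by DESeq2 size factors, rounded, and were used only for the Lyn classes. The deposited fold change, log2 and p-value columns hold the authors' own comparisons and were not used. Places came from Gencode vM21, which held 53620 of the gene IDs.

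Counts were fitted with edgeR 4.0.16 in R 4.3.3 over the 22 tumours: low-count filter, TMM, quasi-likelihood F test, Benjamini-Hochberg adjustment, Lyn left out. Calls needed a 2-fold difference in either direction, with the adjusted p under 0.05. DESeq2 1.42.0, limma 3.58.1 (voom, animal as a random effect), other filters and scalings, terms for genotype, year and PCA group, subsets and each tumour left out were alternatives. The 46 gene lists (571 genes, 530 tested) are described by counts and medians. Named are Lyn, Brca1, Trp53, the 10 genes of smallest unadjusted p with a 2-fold change in each direction, up to 4 of smallest p per list, the study's qRT-PCR genes and genes at 0; other list members and Cyp26a1 were named after their values were seen. The tumours and lists were chosen with earlier results of these data known. The correlation of tumours of 1 animal was 0.0176. The p-values measure the spread between these tumours. The edgeR test was also run on simulated counts of independent tumours with no outlying tumour added. That run cannot decide between the edgeR and DESeq2 counts of called genes, since single tumours stood apart in these data. Some genes are not reported here.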

Additional observations from a re-analysis of the deposited data

Results flagged for a closer look

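Of 94 genes tried, 24 had a highest Lyn-middle tumour whose gap to the next, as a share of the range of the 9 tumours, was above Dixon's 95% critical value of 0.493. Chance flags about 5% of groups only where the values are normally distributed. These normalised counts were not log-transformed and the genes are not independent, so the chance rate here is not known. HOM.12 was that tumour in 13 genes, all of lymphocytes or of the interferon-γ response. Its normalised counts were 756.94 for Pdcd1 (next 204), 1334.5 for Cd8a (next 297), 829.43 for Prf1 (next 73.1), 803.29 for Nkg7 (next 228), 1189.5 for Ccl5 (next 427), 459.87 for Trac, the T-cell receptor α constant region (next 119), and 165.17 for Gzmk (next 86.5). They were 142.6 for Klrd1, 462.25 for Tigit, 223.4 for Icos, 3512.6 for Ighm, 1723 for Igkc and 26590 for Cxcl9.

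HET.63 stood apart in 2 genes, with 6233.5 for Trbc1 (next 358) and 16908 for the collagenase gene Mmp13 (next 3674). WT.42 stood apart in 5, with 4854 for Cel (next 30.9), 6476.9 for Btn1a1, 115990 for Lyz2, 6085.1 for S100a8 and 3903.1 for Cxcl13. HET.45 stood apart in 3, with 2812.6 for Cxcl2, 110020 for the casein gene Csn1s1 and 11003 for the macrophage elastase gene Mmp12. HET.48 stood apart in 1, with 6405.3 for Ccnb2 (next 2319). No lowest tumour stood apart in these genes. The cause was not tested in any of them.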

How the results depend on the processing

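The counts of called genes depended on the tool. The edgeR fit of the 22 tumours called 0 genes, and DESeq2 called 60 higher and 24 lower, 176 at the adjusted p alone, and 49 between Lyn-high and Lyn-middle tumours. Within the later autopsy year edgeR called 1 gene, higher. With each tumour left out, edgeR called 0 to 3 higher and 0 to 7 lower (0 to 10 at the adjusted p alone), above 0 only without HET.48, and 926 to 1267 were higher and 756 to 1118 lower at an unadjusted p under 0.05. Without the low-count filter these were 2603 and 3324 of 35685 genes, and within the earlier year 703 and 402. All other alternatives left the called counts at 0, and the year interaction stayed at 0 in those run for it.

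Of 3426 refitted values of 93 named genes 3350 kept direction and side of the threshold, 38 passed an adjusted p under 0.05 (29 with DESeq2) and 38 turned direction, in 10 genes. With the PCA term Relb was at -0.311, Tnfaip3 -0.165, Shisa8 0.191 and Wnt5a 0.085. The Relb log2 fold change was -0.0164 with the genotype and -0.0123 with the year term, and -0.064 to 0.091 with a tumour left out. Within the earlier year Relb was at -0.183, Tnfaip3 -0.167, Shisa8 0.263, Csn1s1 -2.20 and Wnt5a 0.555. Within Lynfl/fl Relb was at -0.108, Shisa8 0.238, S100a8 -0.489, Brca1 0.025 and Cel -0.528. Within PCA group 2 Relb was at -0.180, Shisa8 0.798 and Wnt5a 1.19. Cel was at -0.258 with DESeq2 and -0.257 to 5.37 with a tumour left out, lowest without WT.42. Cxcl9 was at -0.052 within the later year, -0.00797 without HOM.12 and HET.63, and -0.026 to 3.56 with a tumour left out. Cd40 was at -0.391 without that pair and -0.20 to 0.40 with a tumour left out. The cause was not tested.

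No paired analysis was possible because the groups share no replicate number or animal. For Lyn-high against Lyn-middle, sums per animal, the animal term and subsets were not run, and for the interaction also DESeq2 and voom. Depth did not limit common genes, but some B-cell and NK genes did not pass the low-count filter. Other genes that were tested, such as Tox, Trbc1, Prf1 and Gzmk, also had low median counts in Lyn-low tumours.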
